A study of Mus musculus with 9 samples.

Results

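Respiratory complex I, the NADH dehydrogenase of the inner mitochondrial membrane, was followed through 45 genes of an RNA-seq table from mouse embryonic stem (ES) cells. The 45 genes are those whose name starts with Nduf, out of 23668 named symbols, without 1 row that joins 2 symbols. Of these, 36 encode structural subunits, namely 7 core subunits, 10 accessory subunits of the matrix arm and 19 accessory subunits of the membrane arm. A further 7 are the assembly factors Ndufaf1 to Ndufaf7, and 2 lie outside complex I: Ndufa4, a subunit of cytochrome c oxidase, and its paralog Ndufa4l2.

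The cells belonged to E14, v6.5 and Oct4 GiP, 3 established ES cell lines of which Oct4 GiP carries a reporter for Oct4, a pluripotency factor. Cells of each were kept on gelatin for 2 weeks in Serum, in 2i, or as Paused cells, which were given 200 nM INK128, an mTor inhibitor, over those 2 weeks. A line has 1 library in each condition, which makes 9 in all and 3 in every condition. In ES cell culture 2i commonly means a medium with inhibitors of MEK and of GSK3, though the labels give neither its composition nor the base medium of Paused cells. All RNA samples carried ERCC spike-in RNA.

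Complex I takes electrons from NADH in its matrix arm, passes them along a chain of iron-sulfur clusters to ubiquinone, and couples this to proton pumping in its membrane arm. Core subunits carry the redox groups and the pumps, and accessory subunits surround and stabilise them. Assembly factors hold intermediates together and leave before the enzyme is complete. The core subunits of the pump modules are encoded in mitochondrial DNA, and they are not analysed here. The study asked how ES cells paused by mTor inhibition differ from cells in Serum and 2i. The kinase mTor is known to control the synthesis of mitochondrial proteins.

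Values are FPKM, fragments scaled to transcript length, so levels can be set side by side between genes. The scaling between libraries is not known. Their totals differed, from 1451983 to 2133969 FPKM, and rows with no gene name held 52.8% to 64.0% of the total. Absolute depth is unknown, but from the steps of the low values the relative depth of the libraries ran from 0.811 to 1.0. The 10 listed ES cell markers were all present and summed to 4466 to 5859 FPKM in Serum, 4139 to 4867 in 2i and 6404 to 6889 in Paused, so the Paused libraries lay above the others. Of markers of other cells, 10 of trophoblast summed to 66.1 to 322 FPKM in Serum, 49.8 to 74.2 in 2i and 29.1 to 50.9 in Paused, with Tpbpa at 0 in all libraries. Markers of fibroblast feeders (9 genes) summed to 83.6 to 281 in Serum, 56.0 to 286 in 2i and 36.2 to 53.6 in Paused. Markers of primitive endoderm (8 genes) summed to 93.6 to 137 in Serum, 104 to 211 in 2i and 41.0 to 80.1 in Paused. The part of these marker levels in the results was not tested, and in bulk RNA fewer cells of a type and less RNA per cell cannot be told apart. In a second set of columns the authors multiplied each library by 1 constant. On that scale the median log2 change of all genes was -0.89 for Paused against Serum, -0.33 for 2i against Serum and -0.57 for Paused against 2i, against -0.01, 0.02 and -0.04 in FPKM. Unless the authors' scale is named, each change given here is in FPKM and so stands relative to this shift.

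All 45 genes passed the filter of 1 FPKM in at least 3 libraries, Ndufa4l2 only through the Serum and 2i libraries of E14 and the Serum library of v6.5. The 36 subunits had a median level of 102 FPKM over the 9 libraries, and the 7 assembly factors 10.2 FPKM. Ndufs6, a zinc-binding subunit of the matrix arm, was the highest subunit at 250.1 FPKM, and Ndufa4 stood above every complex I gene at 368 FPKM. Among core subunits, Ndufv2 stood at 56.3 FPKM and Ndufs7 at 117. Among assembly factors, Ndufaf2 reached 53.2 FPKM and stood above 3 subunit rows (Ndufs4, Ndufa11 and Ndufa13), while the others lay between 3.67 FPKM for Ndufaf5 and 14.4 for Ndufaf6. Ndufs1, the largest subunit of the electron path, was the steadiest, with 55.0 to 62.5 FPKM over all libraries, and its conditions differed by less than the test could call. Ndufb4 of the membrane arm ranged 3.08-fold, from 66.6 to 205 FPKM.

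**Figure D1:**
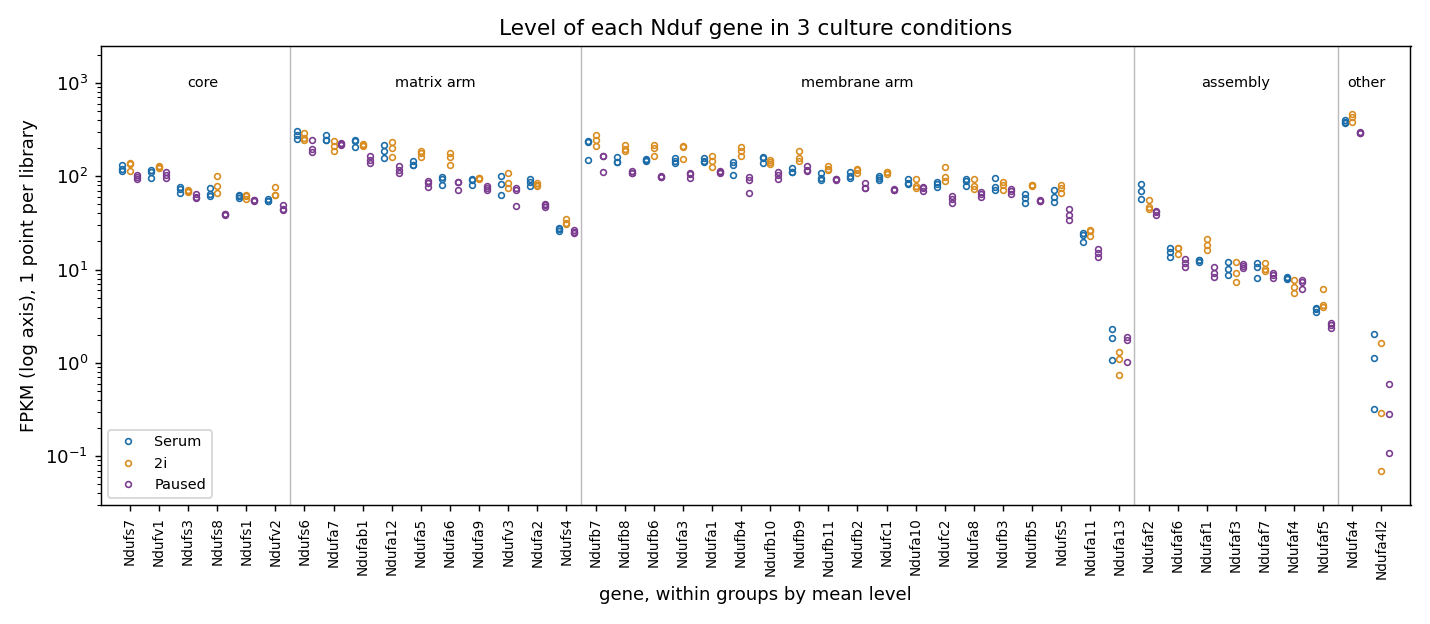
FPKM of 44 of the 45 Nduf genes on a log axis, 1 point per library, coloured by condition and grouped by role. The median subunit sits at 102 FPKM, 6 of the 7 assembly factors have a mean over the 9 libraries of at most 14.4 FPKM, and Ndufa13 and Ndufa4l2 sit near 1 FPKM.

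The row named Ndufa13 alone does not measure the whole gene. It stood at 1.44 FPKM on average, while a row that joins Gatad2a and Ndufa13 held 118 to 195 FPKM, near the level of other subunits. Ndufa13, also called GRIM-19, is an accessory subunit of the membrane arm, and its values below are given with this limit. Of the 45 genes, 15 overlap a coding gene on the other strand and 4 overlap 1 on the same strand in GENCODE vM21. Ndufa2 (with Tmco6), Ndufaf2 (Smim15), Ndufb6 (Smim27), Ndufa3 (Tfpt) and Ndufaf3 (Impdh2) are among the 15. The 4 are Ndufb9 (with Gm49356), Ndufb8 (Gm20538), Ndufb2 (Gm42420) and Ndufa13 (Yjefn3). No source used here says whether fragments were counted by strand, so these values are uncertain.

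The promoters of genes that moved together were read from RefSeq (GRCm38.p6), which held a window of 250 bases before to 50 bases after the start for 39 of the 45. Among those not matched were Ndufa2, Ndufs1, Ndufb9, Ndufaf6 and Ndufa4l2. Motifs of 4 factors known to act on respiratory genes were searched on both strands, and none of them contains another. The NRF1 motif GCGCANGCG was found in 10 of the 39 windows (25.6%), against 15.6% of 9168 windows of tested genes. The YY1 motif AAGATGGC was found in 7 (17.9%, against 5.44%). The ETS motif ACTTCCGG and the ERR motif CAAGGTCA were each found in 1 window (2.56%), against 9.15% and 1.41%. These shares are a description of letters in a window, and no binding was measured.

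The 7 windows with the YY1 motif all held it in the sense direction, 23 to 39 bases after the start, and in 7 of 7 the ATG inside the motif was the annotated start codon. Among the 499 tested genes with the motif, 155 (31.1%) had it at a start codon. The sites are shown because they place the motif in the same frame of every gene, with the motif in capitals, 30 bases each, 5′ to 3′ on the gene's strand.
Ndufs7 (core, chr10:80249462-80249491, plus strand): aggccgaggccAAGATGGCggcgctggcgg
Ndufs6 (matrix arm, chr13:73328433-73328462, minus strand): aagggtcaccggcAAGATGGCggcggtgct
Ndufs4 (matrix arm, chr13:114388045-114388074, minus strand): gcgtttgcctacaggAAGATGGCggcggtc
Ndufa9 (matrix arm, chr6:126849097-126849126, minus strand): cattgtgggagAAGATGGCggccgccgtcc
Ndufa3 (membrane arm, chr7:3617384-3617413, plus strand): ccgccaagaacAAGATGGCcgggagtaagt
Ndufb8 (membrane arm, chr19:44555393-44555422, minus strand): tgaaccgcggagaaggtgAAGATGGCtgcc
Ndufc1 (membrane arm, chr3:51408915-51408944, minus strand): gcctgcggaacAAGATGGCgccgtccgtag

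Among the 8 subunits with the NRF1 motif, those shown were lower in Paused than in Serum and have 1 start in RefSeq. They held the whole motif within the 110 bases before that start. In GENCODE vM21 the genes Ndufb4, Ndufa8 and Ndufs6 begin further upstream, at bases 37654453, 36049406 and 73328542. The matches shown for these lie inside the gene there, while those of Ndufa11 and Ndufs5 lie before it. Ndufa5, with 2 starts in RefSeq, also held the motif and was lower, and is not shown. Nor are Ndufb10, which was lower and whose match runs across the start, and Ndufa6, whose match lies after it. Ndufa6 was not called in Paused against Serum (-0.14, SE 0.07, adjusted p = 0.195 in limma). Of those shown, Ndufb4, Ndufa8 and Ndufs6 lost their call with a correction for length and GC content, described below. The 5 shown are printed 5′ to 3′ on the gene's strand with each match to the motif, read on either strand, in capitals.
Ndufb4 (chr16:37654369-37654478, minus strand): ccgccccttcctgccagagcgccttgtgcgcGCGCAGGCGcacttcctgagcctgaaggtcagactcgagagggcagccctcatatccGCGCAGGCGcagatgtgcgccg
Ndufa8 (chr2:36049339-36049448, minus strand): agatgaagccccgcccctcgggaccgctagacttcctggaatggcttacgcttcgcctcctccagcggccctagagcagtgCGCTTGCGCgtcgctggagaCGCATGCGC
Ndufa11 (chr17:56717652-56717761, plus strand): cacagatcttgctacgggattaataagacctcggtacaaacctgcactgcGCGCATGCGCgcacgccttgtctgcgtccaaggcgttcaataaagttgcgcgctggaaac
Ndufs5 (chr4:123718187-123718296, minus strand): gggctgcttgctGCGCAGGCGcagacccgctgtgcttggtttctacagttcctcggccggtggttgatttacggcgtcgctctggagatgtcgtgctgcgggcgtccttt
Ndufs6 (chr13:73328483-73328592, minus strand): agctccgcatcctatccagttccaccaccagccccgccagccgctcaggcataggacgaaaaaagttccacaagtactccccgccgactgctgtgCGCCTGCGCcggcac

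In FPKM, summed complex I transcripts were lower in Paused than in Serum cells in all 3 lines. Of the 36 subunits, 19 fell and 0 rose, and of the 7 assembly factors 3 fell and 0 rose. Over all 45 genes 23 fell (51.1%), where 10.8% of the 12533 genes tested were called lower and 7.76% higher. At an unadjusted p under 0.05, 31 of the 45 were lower and 0 higher, against 19.7% of all genes lower. All Paused libraries lay below all Serum libraries for 32 of the 45, against 21.5% of all genes. The median log2 change of the subunits was -0.40 (-0.39 for E14, -0.33 for v6.5 and -0.40 for Oct4 GiP), against -0.01 for all genes. In every line 37 of the 45 genes were lower in Paused, against 32.7% of all genes tested. In the authors' rescaled columns all 36 subunits and all 7 assembly factors were called lower, with a subunit median of -1.33, but so were 77.5% of all genes.

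Summed over the 36 subunits, Serum libraries held 3924 FPKM for E14, 4000.2 for v6.5 and 4258 for Oct4 GiP. The Paused libraries held 3020.2, 3066 and 3219.5 FPKM in the same order. Paused thus stood at 77.0%, 76.6% and 75.6% of Serum, a mean of 76.4% ± 0.71 (SD, n = 3). Taken as a percent of the summed FPKM of each library, the subunits in Paused stood at 91.7%, 88.8% and 84.0% of Serum (mean 88.2% ± 3.9), and as a percent of FPKM in named rows at 80.9%, 85.2% and 77.7% (mean 81.3% ± 3.8). On the authors' scale, where the constants of Paused libraries are lower, the same sum was 40.1% ± 2.4 of Serum.

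**Figure D2:**
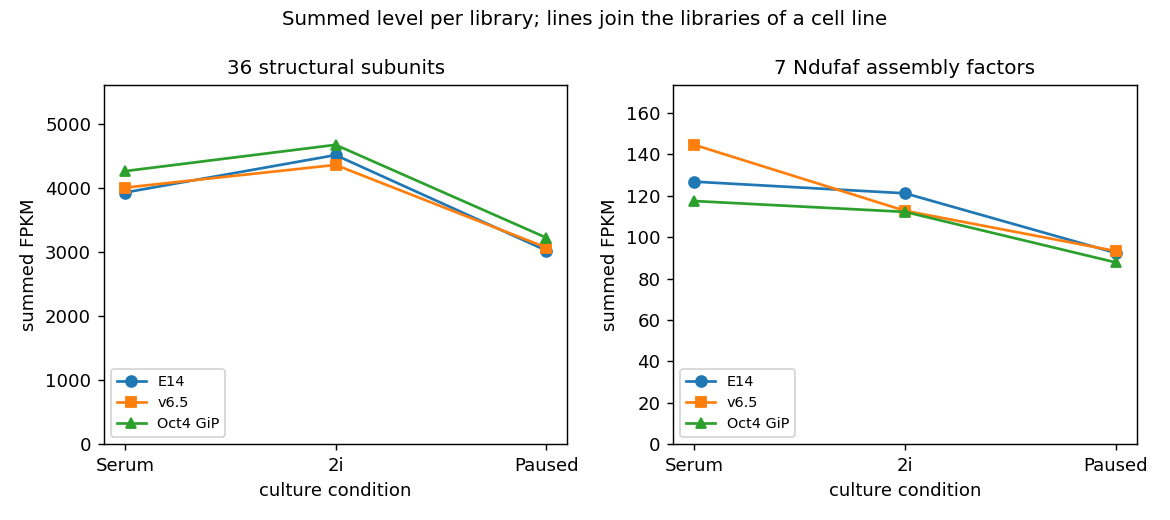
Summed FPKM of the 36 structural subunits (left) and of the 7 Ndufaf assembly factors (right) in each library, with the 3 libraries of a cell line joined. Every Paused library lies below the Serum and 2i libraries in both panels, and subunit sums are highest in 2i in every line in FPKM, whereas on the authors' scale 2i stood at 86.4% of Serum.

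The largest fall was found in the matrix arm. Ndufa2, an accessory subunit with a thioredoxin-like fold in the module that oxidises NADH, lies on chromosome 18 (36742332 to 36744557). Its Serum libraries held 86.5 FPKM for E14, 93.8 for v6.5 and 78.1 for Oct4 GiP, and its Paused libraries held 49.4, 49.9 and 46.4 FPKM. The groups did not overlap, and Ndufa2 fell by 0.81 on the log2 scale (SE 0.08, adjusted p = 0.00932). Ndufa5, a subunit of the ubiquinone module, held 131, 132 and 145 FPKM in Serum and 77.1, 89.5 and 85.0 in Paused. Every Paused library lay below every Serum library, with a log2 change of -0.69 (SE 0.09, adjusted p = 0.0122). Ndufa12, an accessory subunit of the matrix arm, held 189, 158 and 219 FPKM in Serum against 118, 108 and 129 in Paused. It fell by 0.66 (SE 0.11, adjusted p = 0.0158), again without overlap. Ndufab1, the mitochondrial acyl carrier protein that also serves fatty acid and lipoic acid synthesis, held 204, 238 and 244 FPKM in Serum and 150.0, 166 and 139 in Paused. Its log2 change was -0.59 (SE 0.09, adjusted p = 0.0146). In this arm 5 of 10 subunits fell, Ndufs6 the fifth, and all 10 were lower in every line, with a median of -0.39.

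Ndufs8, an iron-sulfur protein of the chain that leads to ubiquinone, fell most among the core subunits. Serum libraries held 64.5, 75.2 and 61.0 FPKM and Paused libraries 39.8, 38.3 and 39.5 FPKM, in the order E14, v6.5 and Oct4 GiP. The Paused values lay close together and below all Serum values, with a log2 change of -0.75 (SE 0.15, adjusted p = 0.0245). Ndufs7, which carries the last iron-sulfur cluster before ubiquinone, changed by -0.31 (SE 0.08, adjusted p = 0.0481). The other 5 core subunits were not called, and the median of the 7 was -0.23. Among them Ndufv1, which binds NADH and the flavin, held 111, 95.5 and 118 FPKM in Serum and 94.9, 104 and 111 in Paused. Its groups overlapped, and its value was -0.06 (SE 0.09, adjusted p = 0.64).

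In the membrane arm 12 of 19 accessory subunits fell and 0 rose, with a median of -0.42. Ndufs5, a subunit on the side of the intermembrane space, held 52.5, 70.5 and 59.7 FPKM in Serum and 38.6, 44.5 and 34.2 in Paused. The groups did not overlap and the log2 change was -0.62 (SE 0.10, adjusted p = 0.0152). The other 11 called were Ndufb6, Ndufb4, Ndufb10, Ndufa11, Ndufa3, Ndufb7, Ndufa8, Ndufb8, Ndufa1, Ndufc1 and Ndufb2, with log2 changes from -0.58 to -0.39. Ndufb9, a LYR-motif protein of this arm that binds an acyl carrier protein, stood at the other end. Serum libraries held 121, 111 and 111 FPKM and Paused libraries 128, 115 and 116, which overlap. Its value was 0.06 (SE 0.08, adjusted p = 0.599), and on the authors' scale it was -0.87. Ndufs4 of the matrix arm, whose loss in mice causes a fatal encephalopathy, was the third gene near 0. It held 26.9, 25.7 and 28.0 FPKM in Serum and 26.7, 24.4 and 25.5 in Paused, with a value of -0.07 (SE 0.08, adjusted p = 0.554).

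Assembly factors split in Paused against Serum. Ndufaf2, a paralog of Ndufa12 that occupies its place on a late intermediate in human cells, held 69.1, 82.9 and 57.1 FPKM in Serum and 41.3, 42.6 and 38.7 in Paused. It fell without overlap by 0.74 (SE 0.13, adjusted p = 0.0207). Ndufaf1, which helps to build the membrane arm, held 12.0, 12.8 and 12.7 FPKM in Serum and 9.30, 10.5 and 8.35 in Paused, a log2 change of -0.38 (SE 0.10, adjusted p = 0.0489). Ndufaf6, needed for an early membrane module in human cells, held 15.3, 16.9 and 13.5 FPKM in Serum and 12.9, 11.8 and 10.8 in Paused, and changed by -0.34 (SE 0.09, adjusted p = 0.0439). In these 3 genes, as in Ndufaf4 and Ndufaf5 among those not called, every Paused library lay below every Serum library.

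The remaining 4 assembly factors did not pass the test. Ndufaf5, which hydroxylates Ndufs7 in human cells, held 3.91, 3.49 and 3.79 FPKM in Serum and 2.69, 2.34 and 2.56 in Paused. The value of -0.42 (SE 0.13) had an adjusted p of 0.0646. Ndufaf7, a methyltransferase that acts on a core subunit in human cells, held 8.11, 11.7 and 10.6 FPKM in Serum and 9.15, 8.02 and 8.69 in Paused, with a value of -0.20 (SE 0.14, adjusted p = 0.351). Ndufaf3 and Ndufaf4, which bind each other and build the ubiquinone module, had values of 0.08 (SE 0.13, adjusted p = 0.711) and -0.17 (SE 0.14, adjusted p = 0.419). Ndufaf3 held 10.2, 8.77 and 11.9 FPKM in Serum and 10.8, 10.3 and 11.4 in Paused, and on the authors' scale its value was -0.82. Ndufaf4 held 8.32, 8.15 and 7.89 FPKM in Serum and 6.22, 7.74 and 7.42 in Paused.

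Outside complex I, Ndufa4 held 380.1, 401 and 369 FPKM in Serum and 293, 298 and 289.6 in Paused, and fell by 0.38 (SE 0.09, adjusted p = 0.0347). Ndufa4l2, a gene induced by low oxygen in other cells, held 2.01, 1.12 and 0.32 FPKM in Serum and 0.59, 0.29 and 0.11 in Paused, with a value of -0.63 (SE 0.23, adjusted p = 0.103). Its level was lowest in Oct4 GiP in Serum and in Paused, and the groups overlapped.

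The calls of this comparison rest on all libraries. None of the 23 stayed called without each single library in turn, and 0 of 36 subunits were called without any Paused library or without the Oct4 GiP Serum library, where 4 to 25 of all genes were called lower. Without the Serum library of E14 or v6.5, 7 and 8 subunits were called, where 444 and 522 of the 12533 genes were called lower. The subunit median stayed between -0.41 and -0.35. Subunit transcripts are short (median length 1026 bases, against 3214 for all tested genes), and with a correction for length and GC content 11 subunits and 1 assembly factor were called lower, with a subunit median of -0.23, where 8.06% of the 12223 genes with a length and GC value were called lower. Of the 23 calls 11 were lost: those of Ndufs8 (adjusted p = 0.0719), Ndufs7 (0.411), Ndufs6 (0.238), Ndufb4 (0.0846), Ndufa3 (0.124), Ndufa8 (0.227), Ndufa1 (0.175), Ndufc1 (0.0709), Ndufaf1 (0.139), Ndufaf6 (0.237) and Ndufa4 (0.0978) in the same limma test.

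**Figure D3:**
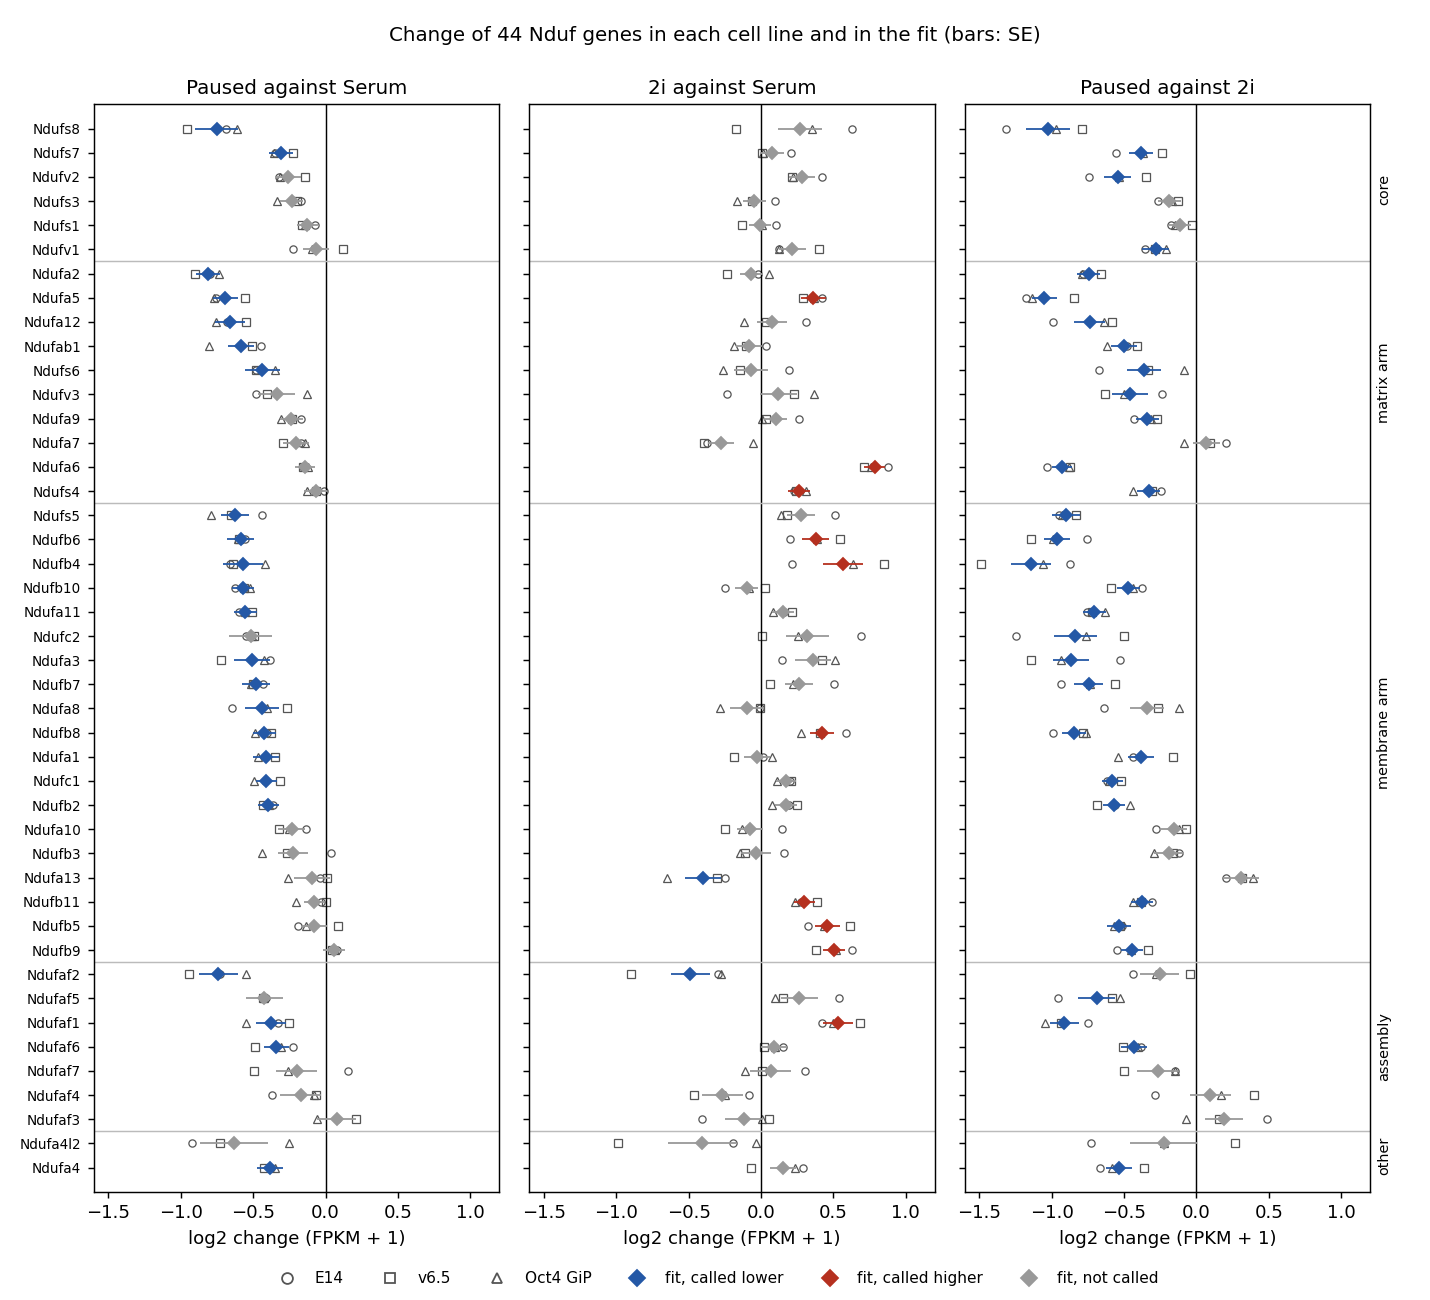
Log2 change of 44 of the 45 genes in the 3 comparisons. Open symbols are the 3 lines, diamonds the fitted change with its SE, blue for called lower, red for called higher and grey for not called. In FPKM, 23 genes are blue on the left, 10 red and 2 blue in the middle and 32 blue on the right. On the authors' scale the middle panel would hold 1 higher and 10 lower.

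In 2i against Serum 12 of the 45 genes were called, in both directions. In FPKM 9 of 36 subunits were higher in 2i than in Serum and 1 was lower, whereas on the authors' scale 1 was higher and 7 were lower, against 9.80% and 35.8% of all genes. Of all 12533 genes 21.9% were called higher and 18.9% lower in FPKM, so the share of subunits called higher (9 of 36) was near the background. With the correction for length and GC content 15 of 36 were called higher, against 21.9% of 12223 genes. The subunit median was 0.16 (0.20 for E14, 0.05 for v6.5 and 0.09 for Oct4 GiP). The summed subunit level in 2i was 4508 FPKM for E14, 4355 for v6.5 and 4668 for Oct4 GiP, or 111% ± 3.3 of Serum (SD, n = 3).

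Ndufa6, a LYR-motif protein that anchors the acyl carrier protein to the matrix arm, rose most in FPKM. Its Serum libraries held 97.6 FPKM for E14, 79.8 for v6.5 and 94.6 for Oct4 GiP, and its 2i libraries 180.0, 132 and 161 FPKM. The groups lay far apart, with a log2 change of 0.78 (SE 0.07, adjusted p = 0.00123). Ndufb9, the LYR-motif protein of the membrane arm, held 188, 145 and 159 FPKM in 2i against the Serum values given above. It rose by 0.51 (SE 0.08, adjusted p = 0.00403). Ndufb4 rose from 143, 104 and 132 FPKM to 166, 189 and 205 FPKM, a log2 change of 0.57 (SE 0.14, adjusted p = 0.0196).

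Of the other Ndufb subunits of the membrane arm, Ndufb5, Ndufb8, Ndufb6 and Ndufb11 rose in FPKM. Ndufb2, Ndufb3, Ndufb7 and Ndufb10 were not called, with values of 0.17, -0.03, 0.26 and -0.10. Ndufb5 held 64.2, 51.5 and 59.0 FPKM in Serum and 80.5, 79.3 and 80.3 in 2i (log2 change 0.46, SE 0.08, adjusted p = 0.008). Ndufb8 held 142, 141 and 161 FPKM in Serum and 214, 187 and 195 in 2i (0.42, SE 0.08, adjusted p = 0.0095). Ndufb6 and Ndufb11 rose by 0.38 and 0.30, Ndufa5 by 0.36 and Ndufs4 by 0.26. All 2i libraries lay above all Serum libraries for 14 of the 36 subunits, these 9 among them, against 25.7% of all genes. Ndufa6, Ndufb9, Ndufb8, Ndufb5 and the assembly factor Ndufaf1 were the 5 of 12 calls that held without each single library in turn. The 9 subunits became 4 without the v6.5 Serum library or the Oct4 GiP 2i library, and 5 without the Oct4 GiP Serum library. In the same fits 1877, 1893 and 1650 of the 12533 genes were called higher, against 2744 with all libraries.

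The row named Ndufa13 was the single subunit called lower in 2i in FPKM. It held 1.07, 1.85 and 2.29 FPKM in Serum and 0.74, 1.30 and 1.10 in 2i, which overlap, with a log2 change of -0.40 (SE 0.12, adjusted p = 0.0426). The joined row of Gatad2a and Ndufa13 held 139, 195 and 177 FPKM in Serum and 145, 186 and 179 in 2i, and its value was 0.003.

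Assembly factors differed among themselves in 2i. Ndufaf1 held 16.3, 21.1 and 18.3 FPKM in 2i and rose over Serum by 0.53 (SE 0.10, adjusted p = 0.00881). Ndufaf2 held 56.2, 44.1 and 47.0 FPKM in 2i and fell by 0.49 (SE 0.13, adjusted p = 0.0293). Both lay outside the range of the Serum libraries. On the authors' scale 0 assembly factors were higher and 3 of 7 lower, against 9.80% and 35.8% of all genes. In the same order of lines, Ndufaf5 held 6.15, 3.99 and 4.12 FPKM in 2i, with a value of 0.26 (SE 0.13, adjusted p = 0.143). Those of Ndufaf6 held 17.1, 17.2 and 14.6 FPKM (0.09, SE 0.09, adjusted p = 0.439). Ndufaf7 stood at 10.3, 11.7 and 9.75 FPKM (0.07, SE 0.14, adjusted p = 0.73). Ndufaf4 stood at 7.78, 5.65 and 6.47 FPKM (-0.27, SE 0.14, adjusted p = 0.174), below its Serum libraries. Ndufaf3 stood at 7.43, 9.13 and 12.0 FPKM (-0.12, SE 0.13, adjusted p = 0.512). Ndufa4, the complex IV subunit, held 465, 382 and 435 FPKM in 2i (0.15, SE 0.09, adjusted p = 0.216). Ndufa4l2 held 1.63, 0.07 and 0.29 FPKM (-0.41, SE 0.23, adjusted p = 0.205).

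**Figure D4:**
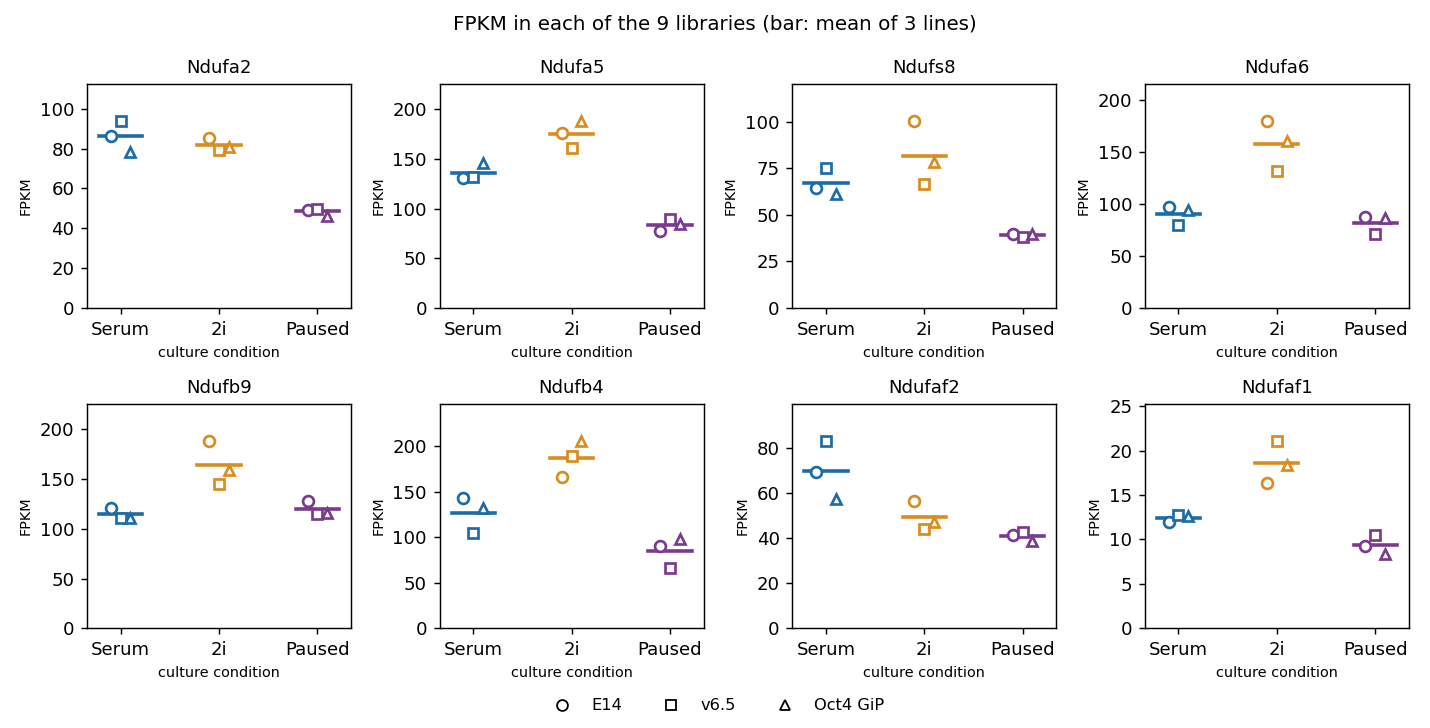
FPKM of 8 genes in each library, with a bar at the mean of the 3 lines and a linear axis from 0. Ndufa2, Ndufa5, Ndufs8 and Ndufaf2 are lowest in Paused, Ndufa6, Ndufb9 and Ndufaf1 are highest in 2i in FPKM, and Ndufb4 is highest in 2i and lowest in Paused in FPKM.

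Paused against 2i gave the most calls. Of the 36 subunits 28 were lower in Paused and 0 higher (4 of 7 core, 9 of 10 matrix arm and 15 of 19 membrane arm), and 34 were lower on the authors' scale, against 55.0% of all genes there. Over all 45 genes 32 (71.1%) were lower, where 24.8% of all genes were called lower and 19.7% higher. The subunit median was -0.49 (-0.55 for E14, -0.45 for v6.5 and -0.52 for Oct4 GiP), against -0.04 for all genes. In every line 39 of the 45 were lower, against 37.0% of all genes. Summed over subunits Paused stood at 67.0%, 70.4% and 69.0% of 2i. Without each single library in turn 25 of the 32 calls held. This comparison shares the Paused libraries with the first and the 2i libraries with the second, so the 3 sets of values are not independent.

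Ndufb4 showed the largest change, from 166, 189 and 205 FPKM in 2i to 90.4, 66.6 and 98.2 FPKM in Paused. Its log2 change was -1.14 (SE 0.14, adjusted p = 0.00178), and v6.5 had the largest distance. Ndufa5 changed from 176, 161 and 188 FPKM in 2i by -1.05 (SE 0.09, adjusted p = 0.000649) and Ndufs8 from 100.3, 66.7 and 78.2 FPKM by -1.02 (SE 0.15, adjusted p = 0.00316). Ndufb6 changed from 167, 219 and 199 FPKM to 98.7, 98.8 and 99.7 FPKM (-0.96, SE 0.09, adjusted p = 0.000985), with the 3 Paused libraries close together. Ndufa6 changed by -0.93 (SE 0.07, adjusted p = 0.000545), with 87.7, 71.4 and 87.1 FPKM in Paused. Ndufs5 changed from 75.4, 80.0 and 65.8 FPKM in 2i by -0.90 (SE 0.10, adjusted p = 0.00133). In these 6 genes no Paused library reached a 2i library, which held for 36 of the 45 and for 28.6% of all genes.

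Among assembly factors 3 of 7 were lower in Paused than in 2i and 0 were higher, beside 24.8% and 19.7% of all genes. Ndufaf1 changed by -0.91 (SE 0.10, adjusted p = 0.00142), Ndufaf5 by -0.69 (SE 0.13, adjusted p = 0.00693) and Ndufaf6 by -0.43 (SE 0.09, adjusted p = 0.00953). Ndufaf2, lower than Serum in both other conditions, had a value of -0.25 (SE 0.13, adjusted p = 0.171), with Paused libraries below all 2i libraries. Ndufaf7 had -0.27 (SE 0.14, adjusted p = 0.169), Ndufaf4 0.10 (SE 0.14, adjusted p = 0.612) and Ndufaf3 0.19 (SE 0.13, adjusted p = 0.277). Ndufa4 changed by -0.54 (SE 0.09, adjusted p = 0.00493), and Ndufa4l2 had -0.23 (SE 0.23, adjusted p = 0.459).

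Read over the 3 comparisons, the subunits fell into a few patterns in FPKM. The patterns rest on the 0.05 threshold, and how many of all genes share each of them was not counted. As given above, no call in Paused against Serum held without each single library in turn. Lower in Paused than in both other conditions, with no call between 2i and Serum, were 14: Ndufs7 and Ndufs8 of the core, Ndufa2, Ndufa12, Ndufab1 and Ndufs6 of the matrix arm, and 8 of the membrane arm. Highest in 2i and lowest in Paused, with all 3 comparisons called, were 4: Ndufa5, Ndufb4, Ndufb6 and Ndufb8. Higher in 2i than in both Serum and Paused, with no call between those, were 5: Ndufa6, Ndufb5, Ndufb9, Ndufb11 and Ndufs4. Another 5 were called only between Paused and 2i (Ndufa9, Ndufc2, Ndufv1, Ndufv2 and Ndufv3), and Ndufa8 only between Paused and Serum. Among values just short of the limma threshold were Ndufc2 in Paused against Serum (-0.52, adjusted p = 0.0575) and Ndufa8 in Paused against 2i (-0.34, adjusted p = 0.0526). No comparison called 6 subunits, Ndufs1, Ndufs3, Ndufa7, Ndufa10 and Ndufb3 among them. An F test over the 3 conditions called 33 of the 45 genes, against 55.1% of all genes tested.

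The subunits and assembly factors were set side by side in each line. The subunit median minus the assembly median, in log2 change from Serum to Paused, was -0.06 for E14, 0.10 for v6.5 and -0.09 for Oct4 GiP. The sign differed between lines, so no difference beyond their spread was seen (mean -0.02, SD 0.10). For Paused against 2i it was -0.17, 0.04 and -0.24 (mean -0.12, SD 0.15). For 2i against Serum it was 0.04, 0.03 and 0.09 (mean 0.05, SD 0.03). Summed levels gave another view, since Ndufaf2 makes up much of the assembly sum. The assembly sum in Paused was 70.7% ± 5.4 of Serum, beside 76.4% ± 0.71 for subunits. Most of that fall in each line was Ndufaf2. Without it, the other assembly factors together fell less relative to Serum than the subunits did, in every line. In 2i the assembly sum was 89.7% ± 10.2 of Serum, beside 111% ± 3.3 for subunits. In every line the assembly sum in 2i was below that in Serum while the subunit sum was above it. This contrast rests on Ndufaf2, which fell by more FPKM than the assembly sum did in every line. The other assembly factors together were thus higher in 2i than in Serum in every line, as the subunits were. On the authors' scale the assembly and subunit sums were below Serum in 2i, at 69.9% and 86.4%.

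The lines were compared across conditions. No member of the 45 was called among E14, v6.5 and Oct4 GiP by the F test of limma, where 1.45% of all genes were called, and 8 of the 45 had an unadjusted p under 0.05, against 19.0% of all genes. Ndufb7, chosen here after its values were seen, is a subunit of the intermembrane space side and had the lowest adjusted p (0.0778). It held 150.0 FPKM for E14, 233 for v6.5 and 238 for Oct4 GiP in Serum, 213, 243 and 278 in 2i, and 111, 164 and 167 in Paused. E14 was lowest in each condition, and within each line Paused was lowest.

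Assembly factors with other names were followed as a list. Of 14, 12 had a row, and 2 were lower and 1 higher in Paused than in Serum, where 10.8% and 7.76% of all genes were. Dmac1 (row Tmem261), needed for the distal membrane arm in human cells, changed by -1.03 (SE 0.12, adjusted p = 0.011), from 109 ± 10.7 to 53.4 ± 10.8 FPKM. Aifm1, a flavoprotein that takes part in mitochondrial protein import, changed by -0.38 (SE 0.10, adjusted p = 0.0496). Tmem186, found with the Ndufaf1 complex in human cells, rose by 0.31 in FPKM (SE 0.08, adjusted p = 0.0442). In 2i against Serum 1 was higher, Acad9 (0.51), and 2 were lower, Dmac1 (-0.50) and Ecsit (-0.45), beside 21.9% and 18.9% of all genes. Acad9 and Ecsit form a complex with Ndufaf1 in human cells. In Paused against 2i 4 were lower and 2 higher, beside 24.8% and 19.7% of all genes. The partner of Ndufaf5, Ndufaf8, stands under an older name (1810043H04Rik) outside the 45. It was among the 4, at -0.66 (SE 0.18, adjusted p = 0.0266), and its value against Serum was -0.58 (adjusted p = 0.0691).

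Of 9 transcription factors and coactivators of respiratory genes, 8 passed the filter. In Paused against Serum 0 were called. Nrf1 had levels of 31.2 ± 1.07 FPKM in Paused and 32.1 ± 3.83 in Serum (-0.03, SE 0.11, adjusted p = 0.845), and Yy1 at 70.9 ± 4.06 and 70.9 ± 4.20 (-0.001, SE 0.09, adjusted p = 0.994). In 2i against Serum Gabpa (0.33) and Ppargc1b (0.71) were higher in FPKM, or 2 of 8 beside 21.9% of all genes, and in Paused against 2i Pprc1 was higher (0.35), or 1 of 8 beside 19.7%. Ppargc1a was below the filter.

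Subunits with the NRF1 motif were also set beside those without it. In Paused against Serum 7 of the 8 with it were called lower, with a median of -0.56, and 11 of the 24 without it, with a median of -0.32. Against 2i these were 7 of 8 (median -0.80) and 19 of 24 (-0.48). For the YY1 motif they were 5 of 7 (-0.41) and 13 of 25 (-0.41) in Paused against Serum. Against 2i they were 7 of 7 (-0.38) and 19 of 25 (-0.54), so the share called was higher with the motif and the median change smaller. These counts were made after the values were known and have no test. Of all tested genes 10.8% were called lower in Paused against Serum and 24.8% against 2i, and the share among those with a motif was not counted. With the correction for length and GC content, Paused against Serum lost the calls of Ndufs6, Ndufb4 and Ndufa8 among subunits with the NRF1 motif. Among those without it, the calls of Ndufs7, Ndufs8, Ndufc1, Ndufa3 and Ndufa1 were lost.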

How the data were processed

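The authors deposited 1 table of 29801 rows with FPKM values from Cuffnorm on mm10, per the submitters' processing notes, which give no version. A second column per library, a deposited signal headed as normalized expression, equals FPKM times 1 constant per library, and its origin is not given in the sources used. Nor are the aligner, the annotation or the scaling within Cuffnorm. Libraries came from 250 ng of total RNA with a directional kit, per the labels' protocols. All 18 value columns were matched to libraries by name (0 without a sample).

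Rows without a gene name (5644, with 52.8% to 64.0% of summed FPKM) and 113 identical repeats were left out, and 1 row was kept per symbol. Eef1a1 is listed at 0 in all 9 libraries, so a 0 can be a failed estimate. The 12533 genes that reached 1 FPKM in at least 3 libraries were fitted on log2(FPKM + 1) with limma-trend (limma 3.58.1, R 4.3.3). This scale understates changes of low genes. All 9 libraries entered 1 fit with the cell line as a block, the Benjamini-Hochberg adjustment ran over all 12533 genes, and the threshold was 0.05. The fit was tested on simulated data. The labelled line gives the pairing. Deviations from condition means correlated at 0.001 to 0.395 within a line and -0.237 to 0.094 between lines. These ranges overlap, and since deviations within a condition sum to 0, the values between lines are in part fixed by those within. Nothing says that cultures of a line were repeated. The p-values therefore weigh a mean condition difference against its variation between 3 lines, moderated over all genes, and not against variation between repeated cultures. With 3 against 3 libraries an exact permutation test that ignores the pairing could not go below 0.1. Permuting within lines has fewer arrangements and a higher limit.

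Members and lists were chosen with earlier results of these data known. Named with full values are the 6 subunits with the largest called change per comparison, all Ndufaf genes, those called against their group, the 3 subunits nearest 0 in Paused against Serum, and both genes outside complex I; others named were chosen after their values were seen. Gene positions are from GENCODE vM21 (GRCm38), and starts from RefSeq. Alternatives were the fit without the line, other pseudocounts and filters, the rescaled columns, centring, a length and GC correction, 2 conditions only, robust variance, summed rows, and leaving out libraries or lines. Taking Ndufa13 from the joined row was added after seeing the data. The values of 1 member are not reported here; it stays in the counts, sums and medians.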

Additional observations from a re-analysis of the deposited data

How the results depend on the processing

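The direction of the subunit median in Paused against Serum and against 2i held under every alternative run, and the number called moved. In Paused against Serum the rescaled columns gave 36 subunits lower (median -1.33) and 7 assembly factors (median -1.26), and the length and GC correction gave 11 (median -0.23) and 1 (median -0.23). Without the replicate block 16 subunits and 1 assembly factor were lower, and 1 assembly factor with no filter on low values. The assembly median was -0.21 with a pseudocount of 5 and -0.27 with a filter of 5 FPKM. Leaving out libraries or lines gave 0 to 24 subunits (median -0.41 to -0.35) and 0 to 4 assembly factors (median -0.40 to -0.27). Of all 12533 genes, 0 to 1862 were called lower in those fits. On the rescaled columns Ndufb9 turned to -0.87 and Ndufaf3 to -0.82.

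In 2i against Serum the count of subunits higher was 1 on the rescaled columns, 5 after centring on the median gene, 3 with only the 2 conditions compared and 15 with the length and GC correction. Of all 12533 genes, 1228 were called higher on the rescaled columns, and after centring 2146 were called higher and 3259 lower. With the correction 2674 of 12223 genes were called higher. The 1 lower subunit, Ndufa13, was 0 without the replicate block, with a pseudocount of 5, with no filter or a filter of 5 FPKM, with 2 conditions only, with the length and GC correction and from the joined row (0.0026), and the count was 7 on the rescaled columns and 2 after centring. The subunit median was -0.20 on the rescaled columns and 0.047 after centring, and the assembly median -0.29, -0.047 and, with a filter of 5 FPKM, -0.024. Assembly factors lower numbered 3 on the rescaled columns, where 35.8% of all genes were lower, and 0 with 2 conditions only. Those higher numbered 0 on the rescaled columns (9.80% of all genes) and 2 with the correction (21.9% of 12223 genes). Left-out libraries or lines gave 1 to 10 subunits higher (2 without all v6.5 and 1 without all Oct4 GiP libraries), 0 to 1 lower, a subunit median of 0.12 to 0.19, 0 to 1 assembly factors higher, 0 to 1 lower and an assembly median of -0.043 to 0.15. Of all 12533 genes, 725 to 2731 were called higher in those fits, with 1457 without all v6.5 and 725 without all Oct4 GiP libraries.

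In Paused against 2i the subunit median was -1.05 on the rescaled columns, -0.39 after centring, where 1 subunit was higher, and -0.42 with the correction. Assembly factors lower numbered 5 on the rescaled columns (median -0.82), where 55.0% of all genes were called lower. Left-out libraries or lines gave 14 (without Oct4 GiP) to 27 subunits and 1 to 4 assembly factors lower, with medians of -0.51 to -0.48 and -0.41 to -0.24. Of all 12533 genes, 1287 (without Oct4 GiP) to 3094 were called lower in those fits. The F test over conditions called 6 to 33 members with a library or line left out, and none was called between lines (8 at an unadjusted p under 0.05). The cause of these differences was not tested. The table holds no counts, so counting error cannot be given.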
